A study of Mus musculus with 2 samples.

Results

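The Fos and Jun genes encode the core of the transcription factor AP-1. The 7 members, Fos, Fosb, Fosl1, Fosl2, Jun, Junb and Jund, were found by symbol among the 21938 protein-coding genes of chromosomes 1 to 19, X and Y in the GENCODE M21 annotation. The DNA described for each was the annotated gene with 50 kb on both sides, called its window. Open chromatin there was read from DNase-seq of frontal cortex of male B6CASTF1/J mice aged 14 days, an F1 hybrid, with no treatment named in the labels. DNase I cuts open DNA more readily, so dense cuts form peaks. Footprints are short stretches cut less than the bases beside them, as happens under bound proteins, and the authors listed some outside their peaks. Both libraries, called replicate 1 and replicate 2, belong to 1 group. Each is labelled as frontal cortex from 3 males, and they share 1 donor number although their tissue samples are separate, so part of their difference may be technical. There was no second condition, no test between groups and no p-value. The tissue is a mixture of cells, in which a few very open nuclei and many moderately open ones cannot be told apart.

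AP-1 proteins are leucine zipper factors that bind DNA as pairs. Jun proteins pair with each other or with Fos proteins, whereas Fos proteins need a partner, and the pairs favour the letters TGACTCA or TGAGTCA. In neurons, Fos, Fosb and Junb are classical immediate early genes, switched on within minutes of activity through calcium and MAP kinase signalling, while Jund is expressed more steadily. The factors SRF, at CArG boxes, and CREB, at cAMP response elements (CRE, TGACGTCA), act on the Fos promoter, and enhancers on both sides of Fos respond to activity.

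The promoters of Jun, Junb, Fosb and Fos are printed first because their footprinted bases differed widely. Each is written 5′ to 3′ on the gene's strand, in mm10, with capitals for bases inside footprints of both libraries.
Jun promoter, chr4:95052223-95052420, minus strand: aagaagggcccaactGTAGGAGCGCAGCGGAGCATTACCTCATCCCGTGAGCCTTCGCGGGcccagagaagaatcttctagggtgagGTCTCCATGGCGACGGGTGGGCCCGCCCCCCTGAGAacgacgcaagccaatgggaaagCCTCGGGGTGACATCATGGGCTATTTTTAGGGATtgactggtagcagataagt
Junb promoter, chr8:84978739-84978960, minus strand: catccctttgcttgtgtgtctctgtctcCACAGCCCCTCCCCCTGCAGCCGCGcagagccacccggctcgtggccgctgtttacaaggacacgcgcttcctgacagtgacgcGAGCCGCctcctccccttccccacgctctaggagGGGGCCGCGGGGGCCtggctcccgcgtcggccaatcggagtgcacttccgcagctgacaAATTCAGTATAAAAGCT
Fosb promoter, chr7:19310261-19310500, minus strand: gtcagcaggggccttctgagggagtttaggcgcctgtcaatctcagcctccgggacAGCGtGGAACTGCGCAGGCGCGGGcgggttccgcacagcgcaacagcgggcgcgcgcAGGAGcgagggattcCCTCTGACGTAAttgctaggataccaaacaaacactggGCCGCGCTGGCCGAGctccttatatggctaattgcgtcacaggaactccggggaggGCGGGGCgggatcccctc
Fos promoter, chr12:85473565-85473864, plus strand: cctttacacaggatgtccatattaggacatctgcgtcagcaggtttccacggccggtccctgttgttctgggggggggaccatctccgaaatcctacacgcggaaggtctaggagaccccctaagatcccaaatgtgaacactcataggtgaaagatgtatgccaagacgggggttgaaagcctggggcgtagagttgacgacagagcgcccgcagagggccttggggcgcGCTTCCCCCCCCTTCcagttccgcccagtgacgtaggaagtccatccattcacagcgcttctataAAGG
Of the 198 bases at Jun, 116 lay in footprints of both libraries, against 64 of 222 at Junb, 62 of 240 at Fosb and 19 of 300 at Fos. The Jun stretch reaches the annotated start, whereas those of Junb and Fos stop short of it, inside a footprint of both libraries. The Fosb stretch lies farther upstream of its first start, so the counts compare unlike stretches. The mean heights of these 4 peaks, given below, fell in the same order, and the part of height in the shares was not tested.

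Each of the 7 members had a peak at its promoter in both libraries, where 59.7% of all protein-coding genes did. A promoter reached 1000 bp to either side of every annotated start of the gene, and its height was that of the tallest peak there, in the authors' units, scaled per library. The median of the members' mean heights was 5.54, and that of all genes with a peak in both libraries was 3.00. The order of the members was the same in both libraries, from Jun through Jund, Fosb, Junb, Fosl2 and Fos to Fosl1. The tallest was 11.5 times the lowest in replicate 1 and 11.4 times in replicate 2. Annotated starts numbered 7 at Fosb, 4 at Fos and 1 at Jun and Jund, so the DNA searched differed between members.

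**Figure D1:**
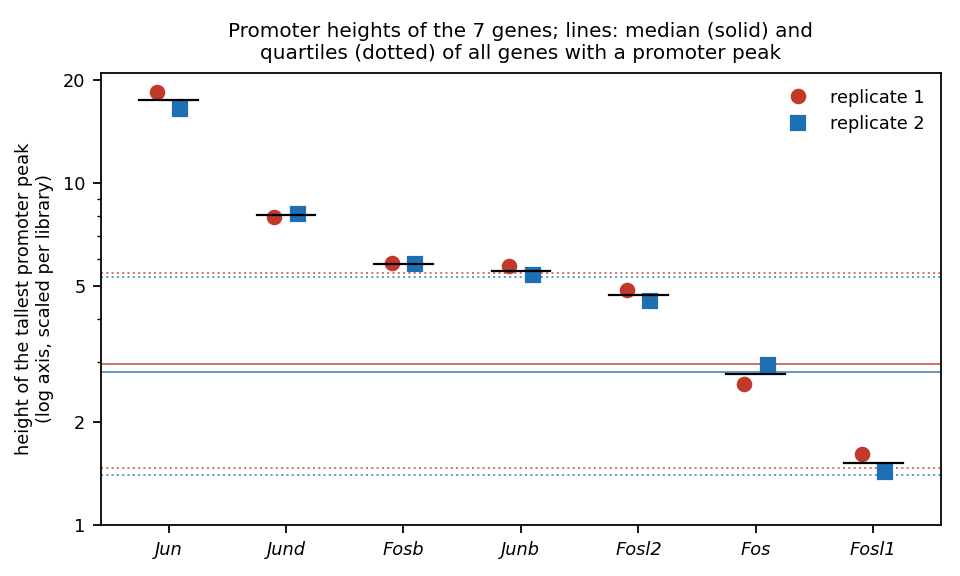
Height of the tallest promoter peak of each gene (log axis, authors' units scaled per library) in replicate 1 (circles) and replicate 2 (squares), with the mean as a short bar and the median and quartiles of all genes with a promoter peak as lines. Jun stands alone at 18.5 and 16.4, Fos lies near the median of all genes, and Fosl1 lies near the lower quartile.

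Jun, the prototype of the Jun proteins, had one of the tallest promoters of the genome. Its heights were 18.5 in replicate 1 and 16.4 in replicate 2 (mean 17.4 ± 1.46, SD, n = 2). It ranked 30th of 13412 genes with a promoter peak in replicate 1 and 99th of 13683 in replicate 2. Jund, the most steadily expressed Jun gene, followed with 7.97 and 8.10 (8.03 ± 0.0942, SD, n = 2), at percentiles 87.9 and 88.9 of promoter heights. The gap between these genes was larger than the spread between libraries. Junb, an immediate early gene whose protein often counteracts Jun, had heights of 5.71 and 5.38 (5.54 ± 0.232, SD, n = 2).

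Fosb, an immediate early gene, had the tallest promoter peak of the Fos genes. That peak, centred 1350 bp inside the gene and 899 bp from the nearest annotated start, reached 5.82 and 5.79 (5.80 ± 0.0195, SD, n = 2). A separate peak 330 bp upstream of its first start reached 4.67 and 5.44 (5.05 ± 0.543, SD, n = 2). The order of Fosb and Junb rests on which of these peaks is taken: the upstream one was lower than the Junb promoter in replicate 1 and higher in replicate 2. The same holds against Fosl2, so the place of Fosb among the Fos genes also rests on the peak inside the gene. Fosl2, which encodes Fra-2, had 4.87 and 4.53 (4.70 ± 0.243, SD, n = 2). Fos had 2.59 and 2.94 (2.76 ± 0.244, SD, n = 2), at percentiles 45.1 and 51.9. Fosl1, which encodes Fra-1, was lowest with 1.61 and 1.43 (1.52 ± 0.126, SD, n = 2), at percentiles 28.2 and 26.1. In the authors' shorter peak list Fosl1 lost its promoter peak, which left 6 of 7 genes and a ratio of tallest to lowest of 6.31.

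The windows together held 79 shared regions, in which peaks of both libraries overlapped by at least 1 bp. There were 8 at Fos, 19 at Fosb, 12 at Fosl1, 6 at Fosl2, 7 at Jun, 16 at Junb and 11 at Jund. The median of 11 compares with 5 for the windows of all protein-coding genes. Many belonged to neighbours: 31 regions lay at promoters of other protein-coding genes, 16 at the members' own promoters, 4 inside a member away from its starts, 3 in the bodies of neighbours and 25 between genes. Fosl1 had starts of 11 other genes in its window, Junb 9, Fosb 7 and Jund 5, whereas Fos, Fosl2 and Jun had none. Distal regions, which touched no promoter, numbered 9 at Fosb, 6 at Fos, 5 at Jund, 4 each at Jun and Junb, 3 at Fosl2 and 1 at Fosl1. With starts of genes of every biotype counted, 22 of these 32 remained distal. Their share was 40.5% of the regions in the windows and 64.4% of all 53659 shared regions.

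**Figure D2:**
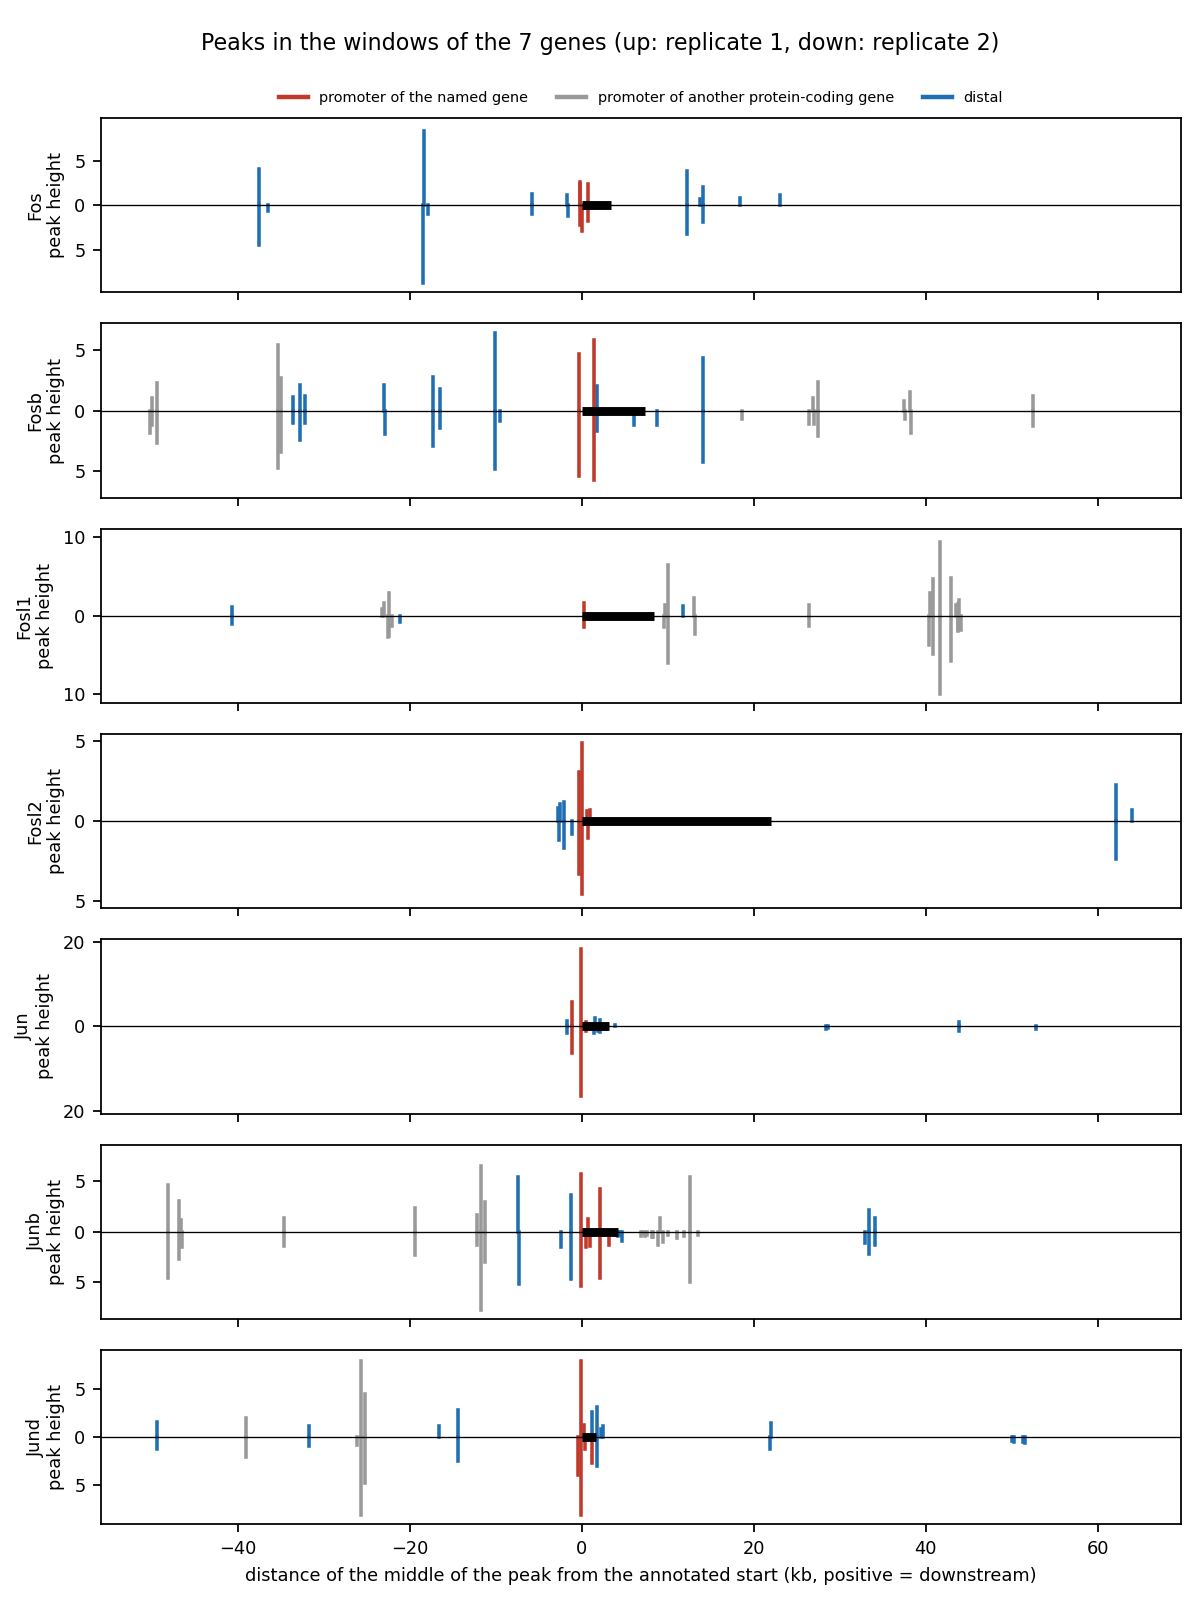
Peaks in the 7 windows by distance from the annotated start (kb), with the height in replicate 1 upward and in replicate 2 downward, each row on its own scale, and the annotated gene as a black bar. The tallest peak of the Fos window is distal at 18509 bp upstream (red marks the gene's own promoter, grey other promoters, blue distal peaks). At Jun, Jund, Junb, Fosl2 and Fosl1 the promoter is taller than every distal peak in both libraries, and at Fosb in replicate 2 alone.

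At Fos, on chr12:85473890-85477273, plus strand, the tallest region was distal. Centred 18509 bp upstream (chr12:85455141-85455620), it reached 8.37 in replicate 1 and 8.73 in replicate 2 (8.55 ± 0.255, SD, n = 2). The Fos promoter was lower than this region in both libraries. It also held 11 and 12 footprints, 10 of the 11 shared, where the promoter region held 5 and 8, of which 2 were shared. A region 37589 bp upstream reached 4.08 and 4.41 and was the next tallest. It lay within 1000 bp of the start of the non-coding gene Gm40477. Another, 12181 bp downstream of the start and so beyond the end of Fos, reached 3.85 and 3.24. The nearest start of a protein-coding gene was that of Fos in all 3. Smaller regions lay 5839 bp and 1725 bp upstream and 14081 bp downstream, with heights from 1.00 to 2.09. Another, at 709 bp inside the first intron, had 2.33 and 1.81. It lay 92 bp from a further annotated start of Fos, so it is also a promoter region by the definition used.

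The middle 300 bp of the tall upstream region are shown with those of the downstream region, since they are the tallest distal region of the window and the one that holds a CArG box. Capitals again mark footprints of both libraries.
Fos upstream region, chr12:85455231-85455530, plus strand: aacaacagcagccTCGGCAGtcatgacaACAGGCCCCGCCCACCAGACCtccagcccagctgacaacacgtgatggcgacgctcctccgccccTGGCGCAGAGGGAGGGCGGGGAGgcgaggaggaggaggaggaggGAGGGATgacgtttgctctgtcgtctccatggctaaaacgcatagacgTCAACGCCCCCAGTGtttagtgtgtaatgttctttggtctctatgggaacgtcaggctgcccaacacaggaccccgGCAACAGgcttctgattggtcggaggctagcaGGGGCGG
Fos downstream region, chr12:85485921-85486220, plus strand: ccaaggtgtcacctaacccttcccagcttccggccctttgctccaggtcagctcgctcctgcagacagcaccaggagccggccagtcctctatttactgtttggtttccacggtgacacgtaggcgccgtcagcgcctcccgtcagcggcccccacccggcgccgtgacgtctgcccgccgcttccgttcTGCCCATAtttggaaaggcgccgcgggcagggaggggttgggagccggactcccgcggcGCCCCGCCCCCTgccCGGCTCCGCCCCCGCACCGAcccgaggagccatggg
Of these 300 bases, 87 upstream and 40 downstream lay in footprints of both libraries. The upstream region held 3 copies of TGACG, the core of a CRE, read on either strand. The copy centred at -18474 bp had its middle base in footprints of both libraries and the one at -18514 bp in replicate 1 alone. The downstream region also held 3 copies, none in a footprint. It held the CArG box CCATATTTGG at 12229 bp, whose middle base lay in a footprint of replicate 2 alone.

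At the Fos promoter itself, the CArG box CCATATTAGG was centred 304 bp upstream of the start. It had no footprint in either library. The TATA box at -30 bp had its middle base in a footprint of replicate 2 alone. TGACG occurred at -64, -127, -290 and -338 bp, and of these the copy at -290 bp was in a footprint, in replicate 1 alone. No complete CRE was found in the 300 bp upstream of Fos, which says only that these letters are not there. The promoter's lowest false discovery rate, the authors' measure of how far the cut rate stood above its surroundings, had a -log10 of 14.5 in replicate 1 and 7.52 in replicate 2, although its height was slightly greater in replicate 2. Height and false discovery rate thus did not order the libraries alike.

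**Figure D3:**
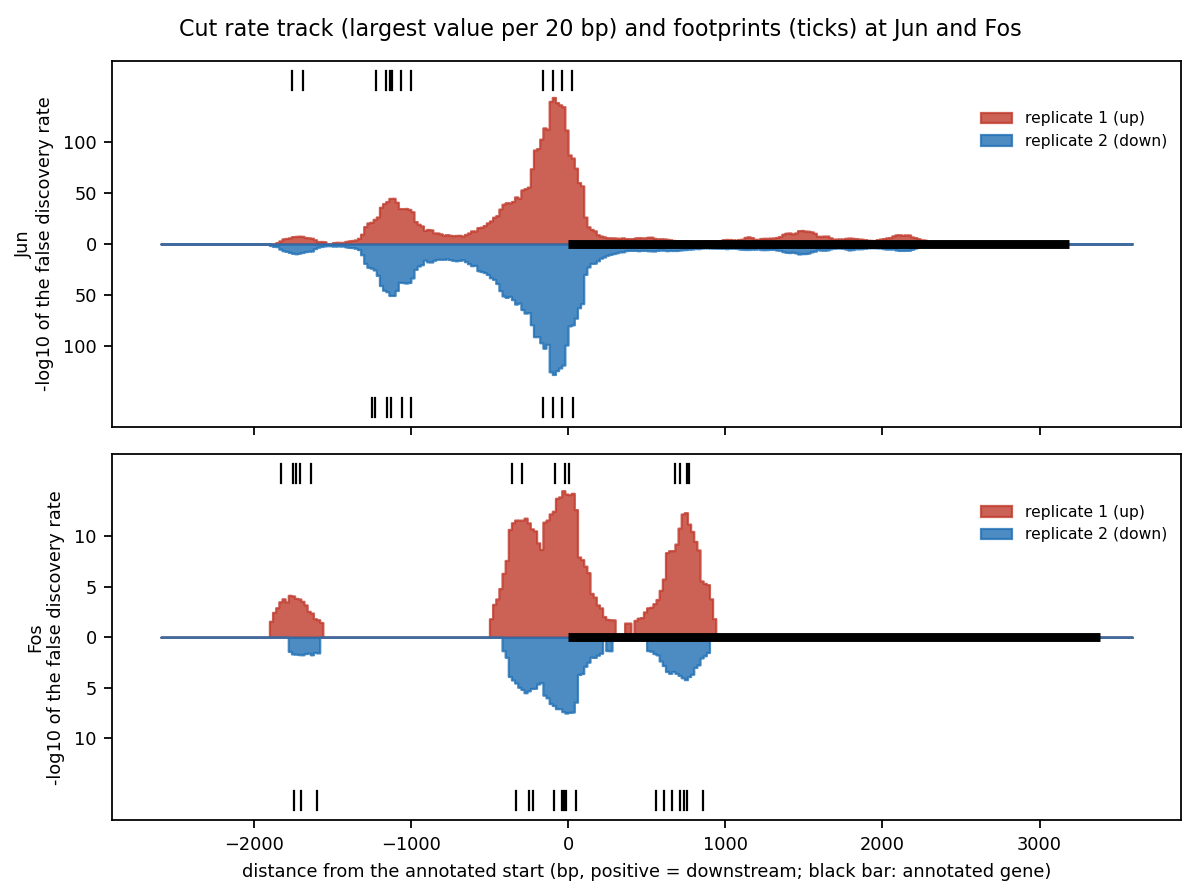
Cut rate track as -log10 of the false discovery rate (largest value per 20 bp, replicate 1 upward, replicate 2 downward) against distance from the annotated start of Jun and of Fos. Ticks mark footprints inside shared regions only, the black bar is the gene, and the vertical scales differ. Jun rises to 143 and 128 just upstream of the start and has no footprint tick over its transcribed part beyond the first bases. Fos shows a lower promoter signal with a separate intronic one at 709 bp.

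Jun, on chr4:95049034-95052222, minus strand, showed the reverse arrangement, with the promoter taller than every distal peak. In both libraries this also held at Jund, Junb, Fosl2 and Fosl1. The Jun promoter region (chr4:95052161-95052420) was the tallest region of any member's window. The -log10 of its lowest false discovery rate was 143 in replicate 1 and 128 in replicate 2. It held 4 footprints in each library, and all 4 of replicate 1 overlapped one of replicate 2. In the printed sequence, footprints of both libraries covered TGACATCA, centred at -42 bp, and the MEF2 site CTATTTTTAG at -29 bp. The first is a variant of the AP-1 and CRE letters known as a binding site of Jun and ATF2 pairs, and the second is the site for MEF2 factors at the same promoter. TGACATCA was present in the 300 bp upstream of 3.13% of all protein-coding genes, and a match to the MEF2 consensus in that of 3.36%. A second region, centred 1129 bp upstream, had heights of 5.71 and 6.25 and 6 footprints in each library, all 6 of replicate 1 shared. The antisense non-coding gene Junos has a start within 1000 bp of this region and of the promoter region. The same holds for the regions at 521 and 1391 bp and the one 1719 bp upstream. Their signal therefore cannot be assigned to Jun alone.

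Inside Jun, which has no intron, open regions came without footprints. The regions at 521, 1391 and 2131 bp from the start had heights of 1.16 and 1.11, 2.08 and 1.50, and 1.64 and 1.24. None held a footprint in either library. A region with a height of 1.24 and 1.21 at 332 bp in Jund, in its coding exon, had none either. These 4 of 79 make 5.06%, where 5.61% of all shared regions lacked footprints in both libraries. Of all 3009 regions without footprints, 213 had a height of at least 1 in both libraries. Of the 76 regions in the windows with a height of at least 1 in both libraries, the same 4 lacked them, where 0.854% of all 24929 such regions did. This height limit was not set in advance and all 4 regions pass it, so no excess is inferred from that contrast. These 4 regions lay in exons of genes without introns. The Jund region at 1132 bp, also over an exon, nevertheless held 4 and 5 footprints. Away from its promoter Jun had little else: a region at 1719 bp upstream had 1.28 and 1.45, and one 43881 bp downstream had 1.17 and 1.06. The latter held 3 and 4 footprints at 40.8% GC, the lowest GC content of the 79 regions.

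**Figure D4:**
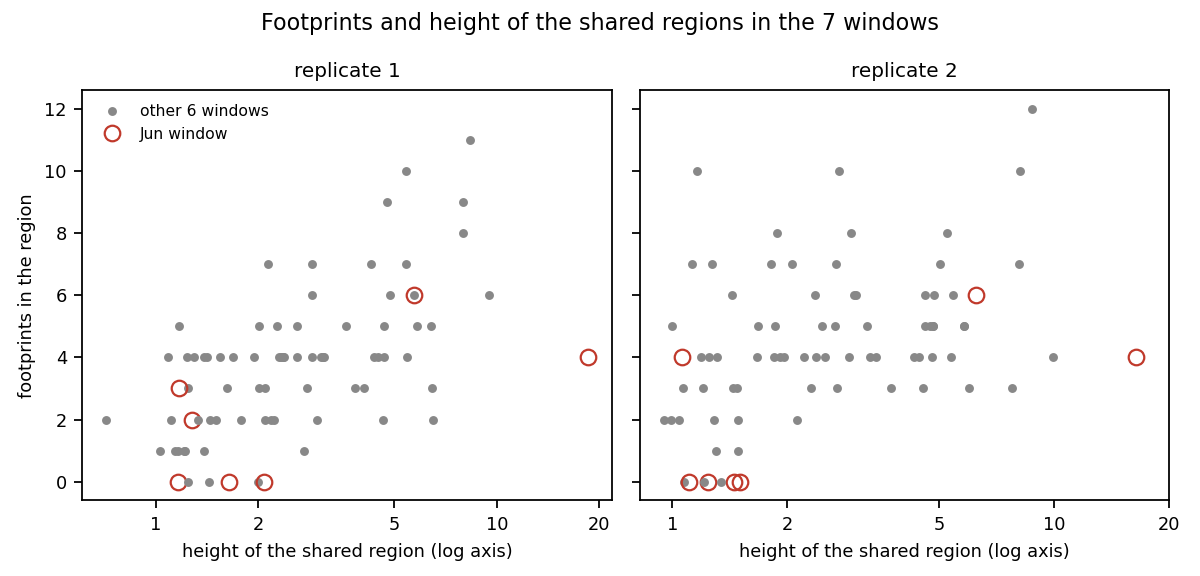
Number of footprints against height (log axis, authors' units) for the 79 shared regions, per library, with the 7 regions of the Jun window as open circles. The Jun promoter has 4 footprints at the greatest height, while the tall Fos region has 11 and 12, and 3 Jun regions lie on the zero line in both panels.

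Fosb, on chr7:19302696-19310051, minus strand, had the most shared regions of the family. Of the windows of all protein-coding genes, 99.4% held no more. Its tallest distal region, 10100 bp upstream, had heights of 6.45 and 4.81 (5.63 ± 1.16, SD, n = 2), a spread wide enough that its order against the Fosb promoter differed between the libraries. It is printed because its footprints fall on repeated copies of TGACG, the CRE core.
Fosb upstream region, chr7:19320001-19320300, minus strand: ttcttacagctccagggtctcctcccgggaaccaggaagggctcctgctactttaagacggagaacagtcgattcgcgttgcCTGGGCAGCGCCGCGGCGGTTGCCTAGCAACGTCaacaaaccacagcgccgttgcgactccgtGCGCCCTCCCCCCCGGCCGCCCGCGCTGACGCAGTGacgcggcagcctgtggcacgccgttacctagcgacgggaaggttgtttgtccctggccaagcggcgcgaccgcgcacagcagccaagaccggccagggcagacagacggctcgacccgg
The copies of TGACG centred at -10076 and -10135 bp had their middle base in footprints of both libraries, and the one at -10068 bp in replicate 2 alone. At the promoter, the CArG box CCTTATATGG at -262 bp had its middle base in no footprint of either library. A TGACG at -315 bp lay in footprints of both, and another at -247 bp in none. Inside the gene, the tallest promoter peak held a copy at 1342 bp in footprints of both, and copies at 1292 and 1270 bp in none. Other distal regions had 4.36 and 4.30 at 14030 bp, over an untranslated or non-coding exon of Rtn2, a reticulon gene, and 2.78 and 2.90 at 17290 bp upstream. The region at 1752 bp inside Fosb had 2.01 and 1.67.

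Junb, on chr8:84974484-84978718, minus strand, had several regions of like height around its start. The promoter reached 5.71 and 5.38, the region at 2057 bp 4.28 and 4.58, the region 1323 bp upstream 3.62 and 4.72, and one 7363 bp upstream 5.41 and 5.22. The last held 10 and 8 footprints, 8 of the 10 shared, and lay nearer to the start of Hook2 than to that of Junb. The region at 2057 bp lay 119 bp from another annotated start of Junb, so it is also a promoter region by the definition used. The TATA box at -28 bp lay in footprints of both libraries. CArG boxes were found at 2089 bp (CCATATATGG, its middle base in a footprint of replicate 2 alone) and at -1446 bp (CCTAATATGG, in none). A further distal region, 33387 bp downstream, had 2.17 and 2.21.

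Jund, on chr8:70698949-70700616, plus strand, carried the only complete CRE of the 79 regions. It lay 210 bp upstream of the GENCODE start, and its middle base was in footprints of both libraries. The antisense gene Gm11175 has a start within 1000 bp of this promoter region and of the regions at 332, 1132 and 1792 bp, so their signal cannot be assigned to Jund alone. The 30 bases around the CRE show that footprint.
Jund CRE, chr8:70698724-70698753, plus strand: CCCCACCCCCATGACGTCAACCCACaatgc
A complete CRE occurred within 300 bp upstream of 2.03% of all protein-coding genes. Past the promoter, regions at 1132 bp (2.59 and 2.66) and 1792 bp (3.10 and 2.99) followed. The latter spans the annotated end of the gene and holds the Egr site GCGTGGGCG, the letters bound by Egr1, another activity-induced factor, in footprints of both libraries. Distal regions 14428 and 49436 bp upstream had 2.88 and 2.51, and 1.54 and 1.28.

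Fosl2, on chr5:32135801-32157842, plus strand, and Fosl1, on chr19:5447547-5455946, plus strand, had 3 distal regions and 1, where the median of all protein-coding genes was 2. At Fosl2 a second promoter region, 360 bp upstream, had 3.06 and 3.29, and one at 770 bp had 0.717 and 1.08. The tallest distal region lay 62110 bp downstream of the start, beyond the gene's end and nearest to the start of Plb1, with 2.27 and 2.38. Those at 2040 and 2590 bp upstream, both within 1000 bp of a start of Gm10463, a gene not annotated as protein-coding, had 1.23 and 1.68, and 1.09 and 1.16. No shared region was found in the body of Fosl2 beyond its promoter, although that gene is the longest member at 22042 bp. At Fosl1 the single distal region, 40718 bp upstream, had 1.16 and 0.993, nearest to the start of Tsga10ip among protein-coding genes and within 1000 bp of that of the non-coding gene 4930481A15Rik. The taller peaks of its window belong to promoters of neighbours.

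The annotated starts differ between GENCODE and RefSeq. With promoters of 1000 bp to either side of the RefSeq starts, the heights of Fosl2 and Jund stayed at 4.70 and 8.03, and that of Fosb went from 5.80 to 5.05, because the downstream starts of GENCODE were left out. Heights within 250 bp of the start itself differed more. RefSeq places the Fosl2 start 671 bp farther downstream, where the peak within 250 bp had 0.717 and 1.08, against 4.87 and 4.53 at the GENCODE start. For Jund it places the start 1210 bp farther upstream, where no peak lay within 250 bp, against 7.97 and 8.10 at the GENCODE start. The starts of Fos and Jun are the same in both annotations, and those of Fosb and Junb differ by 6 and 30 bp. This comparison was chosen after the data were seen.

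Sites for AP-1 itself, TGANTCA on either strand, were found in the middle 300 bp of 7 of the 79 regions, or 8.86%, where 10.8% of all shared regions held one. Of all shared regions, 14.1% of distal ones and 4.73% of promoter ones held one. Distal regions made up 40.5% of those in the windows and 64.4% of all, and the part of this mix was not tested. Over their whole length the 79 regions held 9 sites. None had its middle base in footprints of both libraries, and 2 had it in replicate 1 alone, at 14437 bp upstream of Jund and 23031 bp upstream of Fosb. These are printed with 30 bases each, with capitals for footprints of either library.
Jund upstream AP-1 site, chr8:70684497-70684526, plus strand: tgcctctgcctgtGAGTCAGCATCACCATG
Fosb upstream AP-1 site, chr7:19333067-19333096, minus strand: ctgtgcgGCGGTGACTCAGGCGcgtccccg
No member had TGANTCA in the 300 bp upstream of its first start, where 7.16% of all protein-coding genes did. Fosl2 had one 56 bp and Fosl1 one 353 bp past the start, neither with its middle base in a footprint.

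The other motifs differed in how often the windows held them. A CArG box was found in 7 regions, or 8.86%, where 1.36% of all shared regions held one. Of the 8 CArG sites, 3 had their middle base in a footprint, in replicate 2 alone. Not all belonged to the members: 2 lay at the Mus81 promoter in the Fosl1 window and 1 at the Hook2 promoter in the Junb window. The GC box GGGCGG, bound by Sp and KLF factors, was found in 51 regions, or 64.6%, where 29.2% of all did, and 47 of its 95 sites lay in footprints of both libraries. The share moves with promoters and base composition: 58.7% of promoter regions and 12.9% of distal ones held a GC box, and the median GC content was 60.8% in the windows and 54.4% in all shared regions. Their part in the difference was not tested. TGACG, which a complete CRE also contains, was found in 31 regions, or 39.2%, where 20.1% of all did. It was in 30.1% of all promoter regions and 14.7% of all distal ones, and the part of that mix was not tested. Of its 50 sites, 9 lay in footprints of both libraries. A complete CRE was found in 1 region (1.27%, 1.47% of all), an Egr site in 1 (1.27%, 0.68% of all), a MEF2 site in 3 (3.80%, 3.19% of all) and a CTCF site in 4 (5.06%, 3.61% of all). Of the 5 CTCF sites, 4 lay in footprints of both libraries. None of those 4 lay at a promoter of a member.

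**Figure D5:**
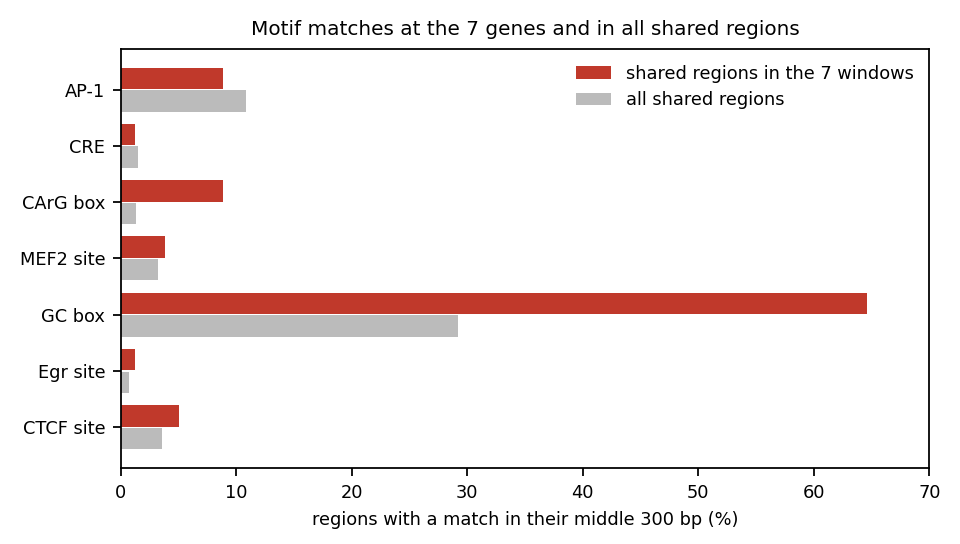
Percentage of shared regions with a motif match in their middle 300 bp, for the 79 regions in the 7 windows (red) and all 53659 shared regions (grey). The CArG box stands at 8.86% against 1.36%, the GC box at 64.6% against 29.2%, and AP-1 at 8.86% against 10.8%.

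The libraries matched more closely in these windows for replicate 1 than for replicate 2. Of 97 peaks of replicate 1, 86.6% overlapped a peak of replicate 2, where 73.3% of all its peaks did. Of 124 peaks of replicate 2, 67.7% overlapped one of replicate 1, where 71.7% of all did. Footprints numbered 327 and 452, and 66.1% and 47.3% of them were shared, where 54.8% and 41.3% of all footprints were. These counts include footprints outside peaks: of the 216 of replicate 1 that were shared, 179 remained when footprints of each library had to lie inside its own peaks. The log2 ratio of heights, replicate 2 over replicate 1, ranged from -0.47 to 0.59 over the 79 regions with a median of -0.02.

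Of the peaks of 1 library alone, the tallest lay 478 bp upstream of Jund in replicate 2, with a height of 4.00 and 6 footprints. Replicate 1 also had a raised cut rate there, with a -log10 false discovery rate of 18.5 against 17.2 in replicate 2, and a peak that began 80 bp away. In the other windows no such peak was above 1.58, and the tallest at Junb, with 1.53, lay in the coding exon at 477 bp.

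Of a list of 40 partners, kinases and upstream factors, 37 had a promoter peak in both libraries, with a median height of 4.82. Over all protein-coding genes the share was 59.7% and the median 3.00. Among leucine zipper partners and relatives 14 of 17 did, led by Atf2, a partner of Jun, at 12.1 ± 0.718 (SD, n = 2) and Atf4 at 11.7 ± 0.475 (SD, n = 2). Batf and Batf3, which serve AP-1 in immune cells, had no promoter peak in either library. Nrl, a photoreceptor factor, had one in replicate 1 alone. All 11 kinases had one, led by Map2k7, which activates the JNK kinases that phosphorylate Jun, at 15.7 ± 0.357 (SD, n = 2) and Rps6ka5 at 13.7 ± 0.187 (SD, n = 2). All 12 factors that act on Fos and Jun genes had one, led by Mrtfa, a coactivator of SRF, at 13.5 ± 0.853 (SD, n = 2) and Creb1 at 10.3 ± 1.46 (SD, n = 2).

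The labelled tissue was checked against markers. Promoter peaks in both libraries were found for 4 of 4 genes of neurons in general, 5 of 6 of cortical excitatory neurons, 3 of 6 of interneurons, 2 of 5 of astrocytes, 3 of 6 of oligodendrocytes and precursors, 2 of 5 of microglia, 2 of 5 of vessels, 1 of 2 of choroid plexus and 0 of 3 of hindbrain and spinal cord. That is 22 of 42 markers, where 59.7% of all protein-coding genes had one, and classes of so few genes tell little apart from that share. Slc17a7, an excitatory marker, had one in replicate 2 alone. Which of these cell types the Fos and Jun peaks come from was not tested.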

How the data were processed

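DNase-seq was measured in 2 libraries of 1 group. Per the deposited file descriptions, the authors made peaks, footprints and cut rates separately for each library in mm10; aligner and callers are not given in the sources used here. Peak height is the authors' signal value; each library has its own unstated scale, and means combine the 2. The deposited p-value or q-value columns hold a false discovery rate of the cut rate, listed below 0.05, and the constant 0.01 for every footprint. Of the 2 deposited peak lists per library the longer was used, and the shorter was an alternative. No counting interval was computed, because read depth is not given in these sources. Reads of a hybrid may map less well at variants of 1 parent, which was not tested.

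Peaks of the libraries that overlapped by 1 bp or more were merged into shared regions, which took the tallest peak of each library. Distal regions overlap no promoter of a protein-coding gene. Motifs were searched on both strands as exact letters, with N for any base and the CArG, MEF2 and CTCF sites by their consensus, in the middle 300 bp of each region for shares and in whole regions for sites. Sequences came from RefSeq's GRCm38.p6, the same assembly as mm10, and RefSeq starts from its promoter table, which matched 6 members. The members and lists were chosen with earlier results of these data known, and TGACG, TGACATCA and the TATA box were added after the sequences were seen. Named regions were those at or inside members, the 3 tallest distal regions per window and the tallest peak of 1 library alone where above that library's median; other regions, sites and list genes were named after their values were seen. Of the list of 40 genes, the 2 tallest per class and those without a peak were named. A site was counted as in a footprint where its middle base lay in one. Joining and searching were tested on simulated data. Python 3.11.15, NumPy 2.4.6, pysam 0.24.0 and matplotlib 3.10.9 were used.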

Additional observations from a re-analysis of the deposited data

How the results depend on the processing

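Of 44 recomputed counts, ratios and shares, 30 stayed within the limits set for a change (a factor of 1.5 for counts, the spread between libraries for others). With the shorter peak list the ratio of the tallest to the lowest promoter height was 6.31, because Fosl1 lost its peak. Flanks of 10 kb gave 35 shared regions, 14 distal ones and 1 with an AP-1 motif, and flanks of 100 kb gave 132 and 51, since less or more DNA was covered. Reciprocal overlap of 50% lowered the share of peaks that overlap between libraries from 76.0% to 59.3%. Requiring the middle base of the AP-1 motif in a footprint left 2 regions. Leaving out either library removes the demand that both agree: shared regions then numbered 97 to 124, distal ones 43 to 52, those with an AP-1 motif 11 to 12, and footprints 327 to 452 in place of 216. Of 41 recomputed promoter heights of members, 39 stayed within the spread between libraries. Heights with 1 library left out are among these 39 and could not fail, because each library lies nearer to their mean than 1 SD. Fosb moved to 5.05 with a promoter of 500 bp and with RefSeq starts, because its taller peak lies farther from the first start. RefSeq starts and the variant TGACATCA were chosen after seeing the data. No paired analysis was possible because the series has 1 group. With 2 libraries and no read totals, differences of height below the spread between them cannot be resolved.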

Other observations

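In the Junb window, 19 peaks were called in replicate 2 alone and 1 in replicate 1 alone. Of the 19, 14 lay over Rnaseh2a, Gm49661 and Prdx2, between positions 84965138 and 84974673 of chromosome 8 (mm10), with heights of 0.259 to 0.967. At none of these 14 did replicate 1 list a base below a false discovery rate of 0.05. In the same stretch the Rnaseh2a promoter region had like heights of 5.41 and 5.01 but -log10 false discovery rates of 11.6 and 124. Of the 40 peaks of replicate 2 alone in the 7 windows, 52.5% had their middle in an exon of a protein-coding gene, where 16.8% of all 21790 peaks of that library alone did; 14 of these 21 lay in the Junb window and 4 in the Jund window, in Pde4c. For replicate 1 the shares were 15.4% of 13 and 9.14% of 20197.

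The Junb coding exon showed the same difference in a member. At 957 bp replicate 2 had a peak of height 1.44 with a -log10 false discovery rate of 38.3, and replicate 1 listed no base there. At 755 bp replicate 1 had a peak of height 1.31 with 1.81, where replicate 2 reached 37.6.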
